A study of Mus musculus with 4 samples.

Results

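The myocyte enhancer factor 2 (MEF2) family of transcription factors has 4 genes in the mouse, Mef2a, Mef2b, Mef2c and Mef2d, and their messenger RNA was followed here in the retina of Q344X and wild-type (WT) mice. The 4 genes were taken by symbol from the 52636 genes of the deposited table. They were selected on the normalized counts of Mef2c, which were more than 20-fold lower in Q344X than in WT retina. The genotype difference of the members is therefore described below without a test. Q344X is a truncating mutation of rhodopsin, the rod photopigment, which in people causes dominantly inherited retinitis pigmentosa with loss of photoreceptors. The 2 groups were 3-week-old mice that carried Q344X (2 libraries) and WT mice of that age (2 libraries), and polyadenylated RNA of the retina was sequenced. The labels give neither the number of mutant copies, nor how the allele was made, nor the sex, litter or strain background of the mice. The design text states that 3 replicates a group were reduced to 2 after poor RNA and outliers were found, but the protocol for extraction counts 3 Q344X and 2 WT animals.

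MEF2 proteins bind an AT-rich DNA element through an N-terminal MADS domain and the MEF2 domain that follows it, and they act as pairs with each other and with other factors. Class IIa histone deacetylases hold them in a repressed state, and calcium-dependent kinases and the phosphatase calcineurin relieve that repression. The family is best known from muscle development and from activity-dependent transcription in neurons. In photoreceptors MEF2D is known to act with the homeobox factor CRX, and the rod factor NRL is known to act on an alternative promoter of Mef2c.

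The members share their DNA-binding end and differ in length beyond it. The first 171 coding bases, which start at the ATG and lie in the part that encodes the MADS domain, are shown from the longest coding sequence of each gene (GENCODE M21, on GRCm38) to show how alike the reads from this part of the family would be. Capitals mark bases that differ from Mef2c at the same position.
Mef2a: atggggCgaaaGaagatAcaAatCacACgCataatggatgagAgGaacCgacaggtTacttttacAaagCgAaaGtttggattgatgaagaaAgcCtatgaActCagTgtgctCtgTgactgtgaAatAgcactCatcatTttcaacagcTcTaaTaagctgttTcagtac
Mef2b: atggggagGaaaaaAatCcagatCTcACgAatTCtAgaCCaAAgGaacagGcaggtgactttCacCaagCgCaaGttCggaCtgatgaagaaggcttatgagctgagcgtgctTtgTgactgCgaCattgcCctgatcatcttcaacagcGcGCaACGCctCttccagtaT
Mef2c: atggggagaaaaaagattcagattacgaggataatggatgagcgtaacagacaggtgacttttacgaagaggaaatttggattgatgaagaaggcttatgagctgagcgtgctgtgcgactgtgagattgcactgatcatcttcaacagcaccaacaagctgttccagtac
Mef2d: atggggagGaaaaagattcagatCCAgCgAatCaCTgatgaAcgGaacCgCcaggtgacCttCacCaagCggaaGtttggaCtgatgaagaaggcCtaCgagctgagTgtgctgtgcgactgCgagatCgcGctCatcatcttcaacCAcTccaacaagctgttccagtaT
Of these 171 bases, Mef2d had 141 equal to Mef2c (82.5%), Mef2a had 140 (81.9%) and Mef2b had 133 (77.8%). The coding sequences of Mef2a, Mef2b, Mef2c and Mef2d hold 498, 349, 474 and 514 codons. Over all annotated transcripts, the longest stretch of identical bases was 31 for Mef2b and Mef2c, 28 for Mef2c and Mef2d, and between 12 and 17 for the other 4 pairs. How the authors treated reads that match more than 1 gene is not given in the sources available. Other annotated genes overlap the exons of 3 members, over 302 bases of Mef2a (Lysmd4, opposite strand), 62 bases of Mef2b (Borcs8, same strand) and 531 bases of Mef2d (1700113A16Rik, opposite strand), which is at most 8.87% of the member's exonic length.

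The libraries held 19034261 and 19346580 reads in genes for Q344X replicates 1 and 2, and 18452679 and 19706573 for WT replicates 1 and 2. The labels give no replicate numbers, so those used here follow the order of the sample titles within each genotype. Values below are normalized counts, that is, reads per gene divided by a size factor for each library. Q344X replicate 2 stood apart in lens genes. The sum of 12 lens markers was 260576 in Q344X replicate 1 and 7168 in Q344X replicate 2, against 239953 and 297361 in WT. Values of the members are therefore also given without that library. Of 18 rod markers, 5 were lower in Q344X by limma at an adjusted p under 0.05 and none were higher, against 9.1% lower and 5.46% higher among the 16833 genes tested, and their median log2 fold change was -0.66 (0.02 over all genes). For Sag, the rod arrestin gene, the log2 fold change was -0.04 ± 0.20 (SE). Of 12 cone markers, 6 passed this threshold and were lower (median -0.93). All rod and cone markers were above 0 in every library, as the label of retina calls for.

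Mef2c, on the plus strand at chr13:83504034-83667080, had 118 and 76.8 normalized counts in Q344X, against 2117 and 2105 in WT. Both Q344X libraries were low and both WT libraries were high and nearly equal, so the groups did not overlap. The Q344X mean was 97.3 ± 29.0 and the WT mean 2111 ± 9.07 (SD, n = 2 each), which puts Q344X at 4.61% of WT. The log2 fold change was -4.46 ± 0.25 (SE from the limma fit across all genes), on the log2(normalized count + 1) scale. WT was 21.7-fold above Q344X by the ratio of means, just inside the limit of 20 that chose the gene. Among 16833 genes with a mean of at least 10, it had the 49th largest fall by log2 fold change, and 73 genes lay more than 20-fold lower by the ratio of means. In bulk retina, fewer cells that make a transcript and less transcript per cell cannot be told apart.

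The difference in Mef2c had about the same size whichever library was left out. The log2 fold change ranged from -4.76 without Q344X replicate 1 to -4.15 without Q344X replicate 2, the library that stood apart in lens genes. Between the replicates of a genotype the log2 difference was -0.61 in Q344X (replicate 2 minus 1) and -0.01 in WT.

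Mef2d, on the plus strand at chr3:88142372-88172086, encodes the member named above as acting with CRX in photoreceptors. It had 5133 and 6931 normalized counts in Q344X, against 7331 and 9551 in WT. The higher Q344X library and the lower WT library lay close together without overlapping, and the replicates of each genotype differed by 0.43 (Q344X) and 0.38 (WT) on the log2 scale. The means were 6032 ± 1271 in Q344X and 8441 ± 1570 in WT (SD, n = 2 each), with Q344X at 71.5% of WT and a log2 fold change of -0.49 ± 0.24 (SE). WT was 1.40-fold above Q344X, far outside the limit of 20-fold that Mef2c met. The size of this difference varied with the library left out, at -0.27 without Q344X replicate 1 and -0.70 without Q344X replicate 2. It was -0.68 without WT replicate 1 and -0.30 without WT replicate 2, so the direction was kept. Replicate 2 was above replicate 1 in both genotypes.

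Mef2a, on the minus strand at chr7:67231163-67372858, encodes a member known for its role in heart and skeletal muscle. It had 3575 and 2694 normalized counts in Q344X, against 2786 and 2608 in WT. WT replicate 1 lay between the Q344X libraries, so the groups overlapped. The means were 3135 ± 623 in Q344X and 2697 ± 126 in WT (SD, n = 2 each), with a log2 fold change of 0.20 ± 0.20 (SE). Its direction was not stable, since the log2 fold change was 0.00 without Q344X replicate 1 and 0.41 without Q344X replicate 2.

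Mef2b, on the plus strand at chr8:70139711-70167488, is the shortest of the 4 proteins and is best known from germinal centre B cells. It had 1.98 and 0.960 normalized counts in Q344X, against 10.4 and 4.01 in WT. All 4 values were low, and both WT libraries lay above both Q344X libraries. Its mean was below the limit of 10, so it was not among the genes fitted, and no fold change is given at this depth. For 3 of the 4 members every Q344X library lay on 1 side of every WT library, and the same held for 63.1% of the 16833 tested genes. These shares are not comparable, since Mef2b was not among the tested genes and the members were chosen on Mef2c.

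**Figure D1:**
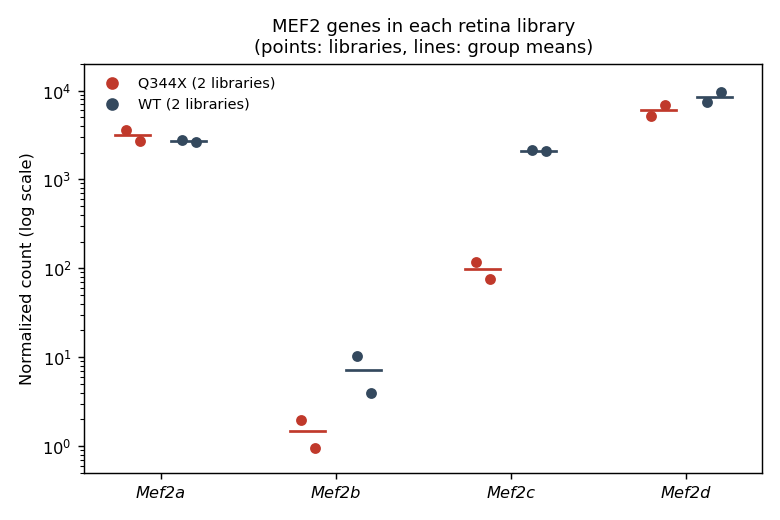
Normalized counts of Mef2a, Mef2b, Mef2c and Mef2d on a log axis, 1 point per library, Q344X left of WT, with a line at each group mean. Mef2c lies at 76.8 and 118 in Q344X and at 2105 and 2117 in WT, whereas Mef2a overlaps between the groups.

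Levels of different genes were compared per kb of exon, since the union exon length of Mef2c (15715 bases) is longer than that of Mef2d (5985 bases). The quantity in this paragraph is the level, in normalized counts per kb. Mef2d was the most abundant member in every library, at 858 and 1158 per kb in Q344X, against 1225 and 1596 per kb in WT. Mef2a followed, at 244 and 184 per kb in Q344X, against 190 and 178 per kb in WT. Both genes were well expressed in both genotypes. Mef2c came next, at 7.50 and 4.89 per kb in Q344X, against 135 and 134 per kb in WT. Mef2b was last, at 1.41 and 0.684 per kb in Q344X, against 7.41 and 2.86 per kb in WT. The order Mef2d, Mef2a, Mef2c, Mef2b was the same in both genotypes, and in WT the means of neighbours in that order lay further apart than the SDs of both (184 ± 8.58 for Mef2a against 134 ± 0.577 for Mef2c).

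The makeup of the family differed between the genotypes. Mef2c made up 0.675% and 0.363% of the summed family level per kb in Q344X, against 8.65% and 7.01% in WT. Mef2d made up 77.3% and 86.0% in Q344X, against 78.7% and 83.5% in WT, and these shares overlapped. Mef2a made up 21.9% and 13.6% in Q344X, against 12.2% and 9.30% in WT. The summed level was 1110 and 1347 per kb in Q344X, against 1557 and 1910 per kb in WT, without overlap. With the longest transcript in place of the union exon length, Mef2c was again in the same place in the order, at 18.8 and 12.2 per kb in Q344X, against 337 and 335 per kb in WT. The choice of length moved the level of Mef2c by more than 1.5 times and left the order of the members as it was. By that length the share of Mef2c was 15.3% and 13.0% in WT, and the share of Mef2a was 39.9% and 27.3% in Q344X, against 22.8% and 18.3% in WT.

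**Figure D2:**
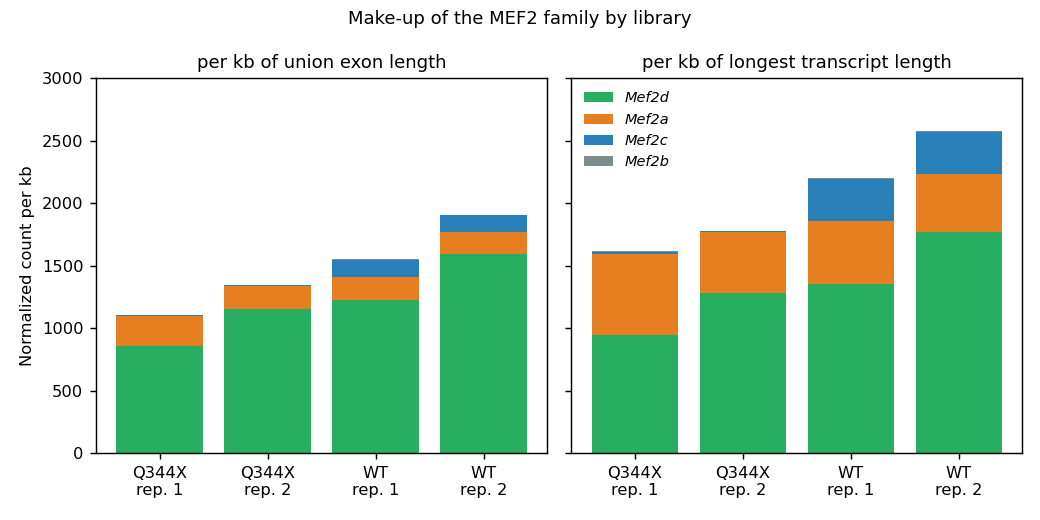
Normalized counts per kb of the 4 MEF2 genes, stacked in each library, Q344X left of WT, by union exon length (left panel) and longest transcript length (right panel). By union exon length the sums are 1110 and 1347 per kb in Q344X and 1557 and 1910 per kb in WT, and Mef2d is the tallest block in each.

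The region around Mef2c holds no other protein-coding gene within 500 kb in the annotation. It holds 14 noncoding genes and pseudogenes, of which 6 had a mean of at least 10 and were tested. One was higher and 1 lower in Q344X by limma, with 5.46% higher and 9.1% lower among all genes tested. Gm33366, an unclassified transcript on the opposite strand 67.6 kb downstream of Mef2c, fell to 11.9 and 8.64 normalized counts in Q344X, against 135 and 86.2 in WT. Its log2 fold change was -3.29 ± 0.37 (SE, limma adjusted p = 0.0087), and the call held without any single library. Gm33366 lies within C130071C03Rik, a long noncoding RNA gene of the other strand that is the host of the brain microRNA gene Mir9-2. C130071C03Rik had 1677 and 1417 normalized counts in Q344X, against 1542 and 1313 in WT, and was not past the threshold (log2 fold change 0.11 ± 0.19). The libraries were directional, but whether counting used strand is not stated in the sources used here, so reads of a gene and its opposite-strand partner may not be separated.

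Among the other tested neighbours of Mef2c, 1 was higher and none was lower. Gm17750, a long noncoding RNA gene 358 kb downstream, rose to 203 and 330 normalized counts in Q344X, against 86.3 and 100 in WT (log2 fold change 1.47 ± 0.30, limma adjusted p = 0.030). That call was lost without WT replicate 1 (adjusted p = 0.074 by limma). The log2 fold changes of 2810049E08Rik (1.02 ± 0.30), Gm26803 (0.70 ± 0.29) and the pseudogene Gm5452 (-0.40 ± 0.47) were not past the threshold. Mir9-2 was listed at 0 in every library, where polyadenylated RNA was selected. The median over the 6 tested neighbours was 0.41, and that over all tested genes was 0.02.

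Around the other members, 8 of 25 annotated genes near Mef2a were tested, 42 of 52 near Mef2b and 36 of 60 near Mef2d. Near Mef2a, 2 genes were higher and 1 was lower. Adamts17, a secreted metalloproteinase gene 78.0 kb away, rose to 94.1 and 87.3 normalized counts in Q344X, against 16.6 and 20.1 in WT (2.25 ± 0.29, limma adjusted p = 0.012). Near Mef2b, 4 were higher and 3 lower, among them Hapln4, a link protein of the extracellular matrix in the brain, with 24.8 and 39.4 in Q344X, against 132 and 195 in WT (-2.32 ± 0.35, limma adjusted p = 0.016). The Adamts17 call held under every alternative, and that of Hapln4 was lost without the filter on low values. Near Mef2d, 1 was higher and 1 lower, Mex3a and Gm37584, and both calls were lost without WT replicate 1 (limma adjusted p = 0.220 and 0.132). That of Gm37584 was also lost without WT replicate 2 (0.059) or Q344X replicate 2 (0.050). Over all 4 members the count was 8 higher and 6 lower of 92 tested (15.2%), which is near the 14.6% of all tested genes.

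**Figure D3:**
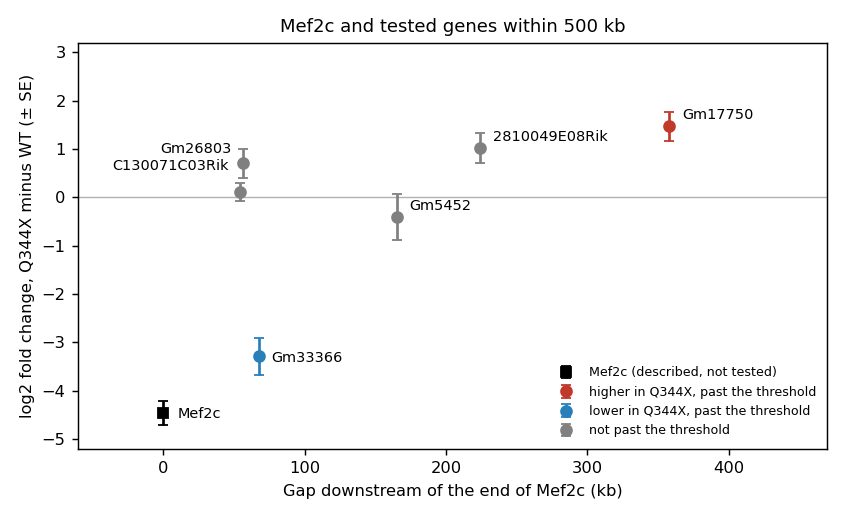
Log2 fold change, Q344X minus WT, with its SE, of Mef2c and of the 6 tested genes within 500 kb, by the distance from the downstream end of Mef2c. Mef2c lies at -4.46 and Gm33366 at -3.29, and the other 5 neighbours lie between -0.40 and 1.47.

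Promoter windows of the members were read from RefSeq (GRCm38.p6), each 250 bases before an annotated start and 50 after it, and are printed up to the start or to the end of a match that crosses it. They are shown because the members differed unequally between the genotypes and because CRX and NRL, the factors named above, have known binding sequences. The letters searched were TAATCC (CRX) and TGCTGA (the core of the NRL site), both on either strand, and the MEF2 element by its consensus. The 3 windows below each held a match, in capitals.
Mef2a, chr7:67372851-67373108, minus strand, MEF2 element: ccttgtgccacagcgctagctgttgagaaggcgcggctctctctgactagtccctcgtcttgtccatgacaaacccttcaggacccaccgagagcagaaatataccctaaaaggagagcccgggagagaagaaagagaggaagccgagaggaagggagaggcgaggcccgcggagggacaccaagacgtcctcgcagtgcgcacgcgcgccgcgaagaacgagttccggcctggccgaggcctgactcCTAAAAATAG
Mef2c, chr13:83573357-83573606, plus strand, most downstream annotated start, TGCTGA: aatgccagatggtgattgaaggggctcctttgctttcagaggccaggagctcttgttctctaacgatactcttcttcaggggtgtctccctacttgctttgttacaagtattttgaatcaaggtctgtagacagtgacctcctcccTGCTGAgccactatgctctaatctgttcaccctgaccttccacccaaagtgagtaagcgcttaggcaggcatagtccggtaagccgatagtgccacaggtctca
Mef2d, chr3:88142122-88142371, plus strand, TGCTGA: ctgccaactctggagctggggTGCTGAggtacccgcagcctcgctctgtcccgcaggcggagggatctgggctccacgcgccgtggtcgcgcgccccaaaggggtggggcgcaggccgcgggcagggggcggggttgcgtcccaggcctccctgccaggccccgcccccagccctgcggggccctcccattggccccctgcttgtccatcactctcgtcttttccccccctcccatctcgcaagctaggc
The MEF2 element of Mef2a spans its own annotated start. Mef2c has 3 annotated starts in RefSeq, and the windows of the other 2 (chr13:83503784-83504033 and chr13:83523406-83523655) held none of these letters, nor did that of Mef2b. TAATCC was in no window of a member. A match describes letters only, and a window without one says nothing of the factor.

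Across promoters, 11920 of the 16833 tested genes had a window. The MEF2 element was in 1.93% of windows of genes higher in Q344X, in 2.13% of windows of genes lower in Q344X and in 1.77% of windows of genes not past the threshold. With 1 mismatch allowed, the shares were 16.1%, 19.7% and 16.9% in that order. TGCTGA was in 15.8%, 17.9% and 15.9%. TAATCC was in 5.66% of windows of genes higher, 10.1% of genes lower and 5.78% of genes not past the threshold. These are shares of windows, without a test.

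Genes of the MEF2 pathway were taken by their role, without the members, together with a list of photoreceptor transcription regulators. These 7 lists are called the pathway lists, and 98 of their 104 genes were tested. Of these, 8 were higher and 4 lower in Q344X (12.2% called), against 14.6% called among all genes tested, which is near the background. The photoreceptor regulators gave 2 of the 8 higher calls. The median log2 fold change over the 98 genes was -0.06. Without the filter on low values Hdac9 was the 1 gene of these 12 still past the threshold.

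Among 8 repressors of MEF2, 1 passed the test and was lower. Hdac9, a class IIa histone deacetylase that binds MEF2 and is itself a known MEF2 target in muscle, fell to 921 and 792 normalized counts in Q344X, against 2198 and 2320 in WT. Both Q344X libraries were below both WT libraries by more than the gap within either pair. The log2 fold change was -1.40 ± 0.18 (SE, limma adjusted p = 0.011), and the call held without any single library. Hdac5, of the same class, had 3231 and 4224 in Q344X, against 4066 and 5564 in WT (-0.36 ± 0.24, not past). The corepressor Ncor1 (-0.32 ± 0.27) was not past the threshold either, and the list's median was -0.14. The list was split in direction. Outside the naming rule, and chosen after their values were seen, Hdac7 (0.68 ± 0.18) and Hdac3 (0.59 ± 0.16) were higher and not past. Of the 8 repressors, 3 had an unadjusted p under 0.05 by limma.

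None of the 18 tested coactivators and partners passed the threshold with limma (6 at an unadjusted p under 0.05), and their median was 0.10. The acetyltransferases Ep300 and Crebbp had log2 fold changes of -0.18 ± 0.24 and 0.47 ± 0.17. Ncoa2, a coactivator of the p160 family, was at 0.31 ± 0.17, and Smad2, a signal transducer of the TGF-beta pathway, was at 0.05 ± 0.17. Vgll2 was listed at 0 in every library and Myod1, the muscle regulator that pairs with MEF2, was too low to test.

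Of 25 kinases known to act upstream of MEF2 or of its repressors, 1 was higher and 2 were lower, with a median of -0.24. Camk4, a calcium and calmodulin-dependent kinase that relieves histone deacetylase repression, rose to 2006 and 1576 normalized counts in Q344X, against 1014 and 959 in WT (0.85 ± 0.20, limma adjusted p = 0.041). Sik2, a salt-inducible kinase that acts on class IIa histone deacetylases, fell to 572 and 418 in Q344X, against 1128 and 1212 in WT (-1.26 ± 0.22, limma adjusted p = 0.022). Map2k6, the kinase that activates p38, fell to 199.98 and 181 in Q344X, against 336 and 343 in WT (-0.83 ± 0.19, limma adjusted p = 0.043). In each of these 3 genes the 2 genotypes did not overlap, as was so for 63.1% of all tested genes. The calls of all 3 were lost when WT replicate 1 was left out (limma adjusted p = 0.187 for Camk4, 0.051 for Sik2 and 0.265 for Map2k6) and when WT replicate 2 was left out (0.203, 0.062 and 0.239). The Map2k6 call was also lost without Q344X replicate 2 (0.061), and those of Camk4 and Map2k6 with quantile normalization. Camk2d had 7360 and 5663 in Q344X, against 8801 and 7765 in WT, and was not past.

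Of 8 genes of calcineurin and its regulators, 1 was higher, with a list median of 0.18. Ppp3ca, a catalytic subunit, rose to 5766 and 6532 normalized counts in Q344X, against 3757 and 3762 in WT (0.71 ± 0.17, limma adjusted p = 0.047). The call was lost without WT replicate 1, WT replicate 2 or Q344X replicate 2 (limma adjusted p = 0.317, 0.264 and 0.074), and with every other scaling or moderation tried except the exon length correction. The other catalytic subunits Ppp3cb (0.31 ± 0.20) and Ppp3cc (0.05 ± 0.17) and the regulatory subunit Ppp3r1 (0.56 ± 0.26) were not past the threshold.

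Of 14 genes known as MEF2 targets in neurons, 1 was higher and none lower, and the median was -0.46. Egr1, an immediate early transcription factor, rose to 883 and 1200 normalized counts in Q344X, against 335 and 427 in WT (1.44 ± 0.24, limma adjusted p = 0.020). The call was lost without WT replicate 1 (limma adjusted p = 0.058). The cell-adhesion gene Pcdh10 (0.31 ± 0.21) and the synaptic gene Homer1 (0.13 ± 0.17) were not past the threshold. Outside the naming rule, and chosen after their values were seen, are 3 activity-regulated targets. Bdnf, a neurotrophin gene, had 157 and 159 in Q344X, against 262 and 263 in WT, Nr4a1, a nuclear receptor gene, had 250 and 353 in Q344X, against 516 and 471 in WT, and neither passed (-0.72 ± 0.20 and -0.73 ± 0.23). Arc, a synaptic immediate early gene, was also not past, at -0.95 ± 0.37.

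Of 17 genes known as MEF2 targets in muscle, 13 were tested, 3 were higher and 1 lower, with a median of 0.46. The share called was 30.8%, against 14.6% over all tested genes, and it rests on these 13 genes. Slc2a4, the insulin-responsive glucose transporter, rose to 102 and 120 normalized counts in Q344X, against 29.1 and 22.1 in WT (2.08 ± 0.29, limma adjusted p = 0.014). Fhl2, a LIM-domain cofactor, rose to 43.6 and 36.5 in Q344X, against 6.24 and 11.03 in WT (2.13 ± 0.43, limma adjusted p = 0.030). Myh7, a slow myosin heavy chain, rose to 32.7 and 25.0 in Q344X, against 9.36 and 7.02 in WT (1.70 ± 0.42, limma adjusted p = 0.048). All 3 were low in WT retina. Ppargc1a, a coactivator of mitochondrial genes, fell to 864 and 839 in Q344X, against 1468 and 1526 in WT (-0.81 ± 0.17, limma adjusted p = 0.032). Only the Slc2a4 call held without any single library. The Fhl2 call was lost without WT replicate 1 (0.078), and those of Ppargc1a and Myh7 without WT replicate 1 (0.216 and 0.083) or WT replicate 2 (0.214 and 0.144), all limma adjusted p-values. The Myh7 call was also lost without Q344X replicate 1 (limma adjusted p = 0.099). Of 12 skeletal muscle markers, 4 were tested, of which Pvalb and Mylpf were lower (limma adjusted p = 0.033 and 0.032) and none was higher. That is 50% of only 4 genes. The sums of the 12 markers were 177 and 200 in Q344X, against 293 and 322 in WT.

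Of 12 photoreceptor transcription regulators, 2 were higher and none lower, with a median of -0.09. Samd7, a rod repressor of the Polycomb system, rose to 16217 and 11243 normalized counts in Q344X, against 4899 and 5060 in WT (1.44 ± 0.23, limma adjusted p = 0.018). The related Samd11 rose to 18458 and 16615 in Q344X, against 8495 and 9904 in WT (0.93 ± 0.19, limma adjusted p = 0.030), a call lost without WT replicate 1 (0.236) or WT replicate 2 (0.096). Nrl, the rod determinant, had 20218 and 30218 in Q344X, against 28206 and 39189 in WT. The groups overlapped and the log2 fold change was -0.43 ± 0.28. Crx had 22990 and 20436 in Q344X, against 22579 and 23207 in WT (-0.08 ± 0.18, not past).

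**Figure D4:**
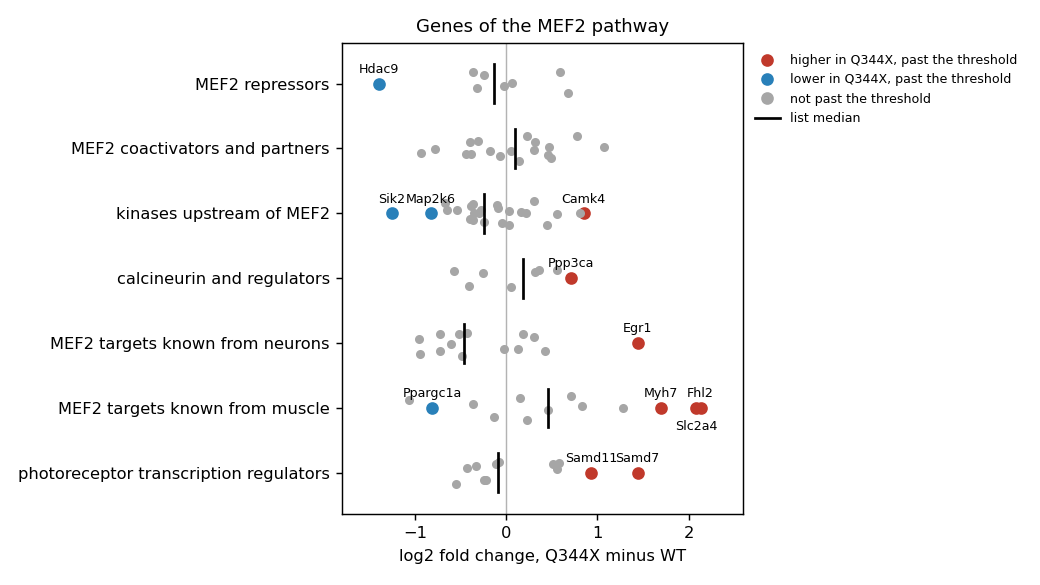
Log2 fold change, Q344X minus WT, of each tested gene in the 7 pathway lists, photoreceptor transcription regulators included, with the list median as a black line. The 12 genes past the threshold are coloured and named, from Hdac9 at -1.40 to Fhl2 at 2.13.

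The genes whose pattern lay nearest to Mef2c were found by Euclidean distance between centred log2(normalized count + 1) values over the 4 libraries, among 13326 genes with a mean of at least 50. With 4 libraries this distance mostly follows the genotype difference. Ahrr, the repressor of the aryl hydrocarbon receptor, was nearest (distance 0.285), with 31.7 and 25.0 normalized counts in Q344X, against 731 and 742 in WT. Pdzph1, a gene with PDZ and pleckstrin homology domains, followed (0.289), with 531 and 341 in Q344X, against 7745 and 7592 in WT. Sh2d1a, an adaptor known from lymphocytes, was next by name (0.421), with 9.90 and 6.72 in Q344X, against 258 and 275 in WT. In all of these both Q344X libraries were low and both WT libraries high. Kctd21, Slc5a8 and Chst3 completed the 6, at distances of 0.608, 0.634 and 0.642. Chst3, a chondroitin sulfotransferase, had 71.3 and 83.5 in Q344X, against 1891 and 1475 in WT. The other members were far away, Mef2d at 4.05 and Mef2a at 4.66, with ranks of 3191 and 7926.

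**Figure D5:**
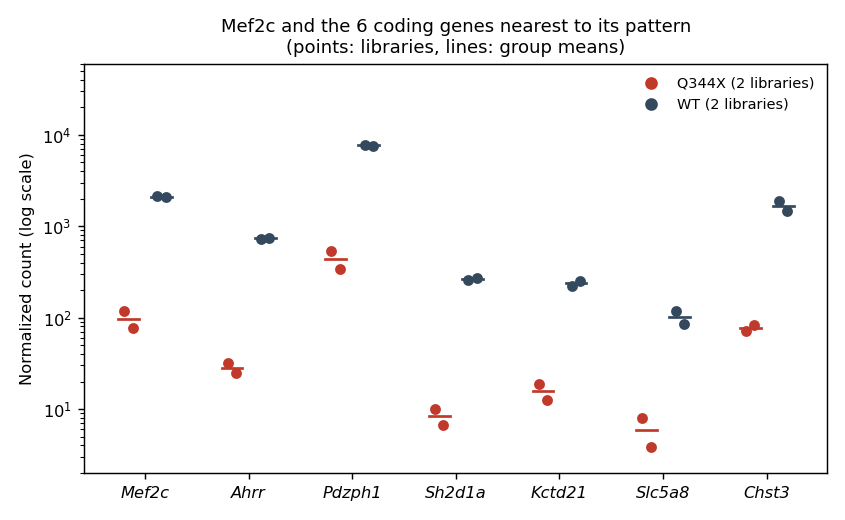
Normalized counts on a log axis of Mef2c and of the 6 nearest named genes, 1 point per library, Q344X left of WT, with a line at each group mean. In each gene both Q344X libraries lie far below both WT libraries, as for Chst3 with 71.3 and 83.5 in Q344X and 1891 and 1475 in WT.

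Markers of cell types known to hold MEF2C outside photoreceptors are given beside its difference. Over all tested genes, 5.46% were higher and 9.1% lower (14.6% called), and with 12 markers a list 1 or 2 calls are near that share. None of 12 microglia markers passed the threshold with limma (1 at an unadjusted p under 0.05), with sums of 1993 and 2401 in Q344X, against 2048 and 1762 in WT. Of 12 endothelial markers, 2 were higher and none lower, with sums of 8582 and 6805 in Q344X, against 7085 and 5290 in WT, and Kdr, the VEGF receptor, had 5248 and 3196 in Q344X, against 4105 and 2418 in WT. In both lists the sums overlapped between the genotypes. Of the 12 endothelial markers, 6 had an unadjusted p under 0.05 by limma. Their median log2 fold change was 0.48, against 0.23 for the microglia markers and 0.02 over all tested genes. Ganglion cell markers were higher for 5 of 12 and lower for none. Of the other lists, bipolar cell markers were higher for 2 of 12 and lower for none, amacrine cell markers higher for 1 and lower for 2 of 12, Müller glia markers higher for 1 and lower for 3 of 12, and pigment epithelium markers higher for 3 of 11 and lower for none. The rod markers summed to 623299 and 713277 in Q344X, against 1288690 and 1477550 in WT, the same direction as Mef2c and Mef2d. The part of the cell makeup in the difference of any member was not tested.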

How the data were processed

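The authors deposited 1 table of normalized counts, a signal that is never negative and is made of gene counts divided by a size factor per library. Divided by the smallest step of their column, 100% of the values came within 0.1 of a whole number of reads, and the depths were computed from these. For 2 columns the recovered reads did not pass a unit check, so no count model was fitted. The submitters' processing notes list STAR, featureCounts, FastQC, Trim Galore 0.4.4 and DESeq2 1.16.1 in roles that are not stated, on the build mm10. The annotation and strand setting are not stated in the sources used here. Per the labels' protocols, RNA was poly-A selected and libraries were directional.

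From these values, log2(normalized count + 1) of the 16833 genes with a mean of at least 10 was fitted on genotype in limma 3.58.1 (R 4.3.3), with variances moderated along a trend with the mean (3.90 prior and 2 residual degrees of freedom). P-values were two-sided and Benjamini-Hochberg adjusted over these genes, with a threshold of 0.05. The + 1 understates the fold change of low genes. A permutation test of 2 against 2 libraries cannot go below p = 0.333, so calls rest on the variance limma shares between genes. They reflect the spread between 2 libraries a group, which may be technical, since the labels do not tie each library to an animal. Symbols, positions and lengths are those of GENCODE M21, matched by Ensembl identifier for 52403 genes, with 233 unmatched and 21820 at 0 in every library.

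The members and gene lists were chosen with earlier results of these data known. The text names the members, up to 4 genes per pathway list (called genes by size of change, then by mean), the 6 named genes nearest Mef2c, tested genes within 500 kb of Mef2c, called genes near the other members, and up to 3 markers per list by mean. Some genes that the rule takes are not reported here. Each library was left out in turn, and the other alternatives were a minimum mean of 50 or none at all, pseudocounts of 0.5 and 5, 75th percentile scaling, quantile normalization, robust moderation and a correction for exon length.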

Additional observations from a re-analysis of the deposited data

How the results depend on the processing

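Mef2c lay between -4.76 and -4.15 on the log2 scale (Q344X minus WT) under every alternative, and Mef2d kept its direction (-0.70 to -0.27). Mef2a lay between 0.00 (without Q344X replicate 1) and 0.41. Counts of calls by limma depended on single libraries. Leaving out 1 library in turn gave 388 to 2353 genes higher and 666 to 2973 lower of all tested (919 and 1531 with all 4), 2 to 10 higher and 1 to 9 lower in the pathway lists (8 and 4), 3 to 28 and 8 to 35 in the marker lists (14 and 18), and 3 to 20 and 4 to 12 among the neighbours (8 and 6). The low ends came without a WT library, and the lone library of a genotype is then assumed to vary like the other genotype.

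Without the filter on low values, 153 genes were higher and 383 lower, with 0 and 1 in the pathway lists, 2 and 4 in the marker lists and 1 and 3 among the neighbours. Of the genes in the pathway lists, 5 were higher with a minimum mean of 50 and 5 with 75th percentile scaling, and 7 were lower with the exon length correction. Per kb of the longest transcript, WT means were 487 for Mef2a and 336 for Mef2c. Only 3 of the 6 genes nearest to Mef2c were among the 6 with a pseudocount of 5. Allowing 1 mismatch in the MEF2 element raised its share to 16.1% (higher) and 19.7% (lower). The causes were not tested.

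No paired analysis was made because the labels do not pair libraries between the genotypes. The replicate numbers used here do not mark pairs. With 2 libraries a genotype, smaller differences of Mef2a and Mef2d could not be resolved, and Mef2b had too few reads.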
